A study of Mus musculus with 6 samples.

Results

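Nnt and enzymes linked to the NADPH pool or to the peroxide and thiol defence of mitochondria were followed across 6 libraries of IL-4-treated mouse macrophages. The genes are Nnt, Idh2, Me2, Me3, Nadk2, Prdx3, Txn2, Txnrd2, Glrx2 and Sod2. They were taken by symbol from the deposited table, where the 10 symbols occupy 11 of 31883 rows because Nnt is listed under 2 gene IDs. Nnt was selected on its FPKM difference between the groups compared here, so its values are described without a test. The other 9 genes were chosen for their function in mitochondria, with earlier results of these data known.

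Bone marrow of C57Bl/6 wild type mice and of C57Bl/6 mice labelled as global CD22 knockout was cultured in medium with 25% L929-conditioned medium, which supplies macrophage growth factor, and cells were harvested on day 7. All 6 cultures were then polarized for 48 hours with 20 ng/mL IL-4, so no untreated culture was compared, and each group has 3 libraries. The labels give neither the substrain of C57Bl/6 nor the part of Cd22 that was removed. Whether each library had its own animal is not given either, so the p-values reflect variation among libraries that could be purely technical. The C57BL/6J substrain is known to carry a deletion within Nnt that other C57BL/6 substrains lack, and the reference genome used for positions is that of C57BL/6J. The deposited values are per gene and do not separate exons.

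Mitochondria keep their own pool of NADPH. NNT, a proton-driven transhydrogenase of the inner membrane, makes NADPH from NADH, and isocitrate dehydrogenase 2 and the NADP-using malic enzyme make it from carbon substrates. That NADPH feeds thioredoxin reductase 2, which reduces thioredoxin 2, which in turn reduces the peroxidase PRDX3 that removes hydrogen peroxide. In macrophages this system stands beside an NADPH oxidase that spends cytosolic NADPH to make superoxide.

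The values are FPKM, fragments scaled to transcript length and to the mapped fragments of the library. Scaling to length lets levels be compared between genes, while a comparison between libraries also depends on what the most abundant transcripts take of each library. Library sums of FPKM ran from 314441 to 348332. Cd22 (8.21 to 9.53 FPKM in the knockout-labelled libraries, 8.95 to 10.6 in wild type) did not mark the groups apart, and gene-level values cannot show a partial deletion. Transcripts of the mitochondrial genome made up 15.6% to 20.4% of the FPKM sum in the knockout-labelled group and 11.7% to 16.5% in wild type. Their part in the values below was examined by leaving them out of the scale. For this, all other values were divided by the share of the FPKM sum that remained, a share of FPKM and not of fragments. All 7 macrophage markers examined were at 1 FPKM or more in every library, with sums of 6495 to 8803 in the knockout-labelled group and 6984 to 9467 in wild type. The 4 IL-4 response genes Arg1, Retnla, Chil3 and Mrc1 summed to 3433 to 3829 and 3548 to 4062 FPKM. Neutrophil markers summed to at most 1.55 FPKM, T cell markers to at most 0.0114, and B cell markers to 8.36 to 9.74 in the knockout-labelled libraries and 7.22 to 9.20 in wild type. Erythroid markers summed to at most 5.66 FPKM and fibroblast markers to at most 3.10. Adipocyte markers summed to 1.78 to 5.55 FPKM against 5.75 to 24.0, and skeletal muscle markers reached 4.70 in wild type library 1 and at most 0.237 elsewhere. The part of these other transcripts in the results was not tested beyond leaving libraries out.

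The 2 gene IDs of Nnt lie on the minus strand of chromosome 13, the first (ENSMUSG00000025453) from 119335448 to 119408997 and the second (ENSMUSG00000116207) from 119335528 to 119408952 in GRCm38. In GENCODE M21 the first ID holds 5 transcripts and the second holds 1, named Nnt-206. All 3339 exonic bases of the second ID lie within exons of the first. Transcript Nnt-206 has the same 16 introns as Nnt-202 of the first ID, and its whole sequence is found inside the 3464 bases of Nnt-202, which begins 45 bases earlier and ends 80 bases later. Both carry the same coding length of 2505 bases. The reference genome used for positions is that of the substrain with the deletion within Nnt, so these models cannot contain the deleted bases. Whether the deposited values cover the deleted bases was not tested. Fragments within the shared 3339 bases fit either ID, and how the software assigned them is not given. The first ID holds 7037 exonic bases, of which 47.4% are shared. What sets the split between the IDs was not tested. The opening 60 coding bases of both transcripts are shown because they are identical, as is the rest of the shared sequence (chr13:119404643-119404702, minus strand, GRCm38, GENCODE M21 transcripts, start codon in capitals).
Nnt-202: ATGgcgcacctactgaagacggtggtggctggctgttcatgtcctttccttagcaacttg
Nnt-206: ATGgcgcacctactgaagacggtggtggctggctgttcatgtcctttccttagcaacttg

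**Figure D1:**
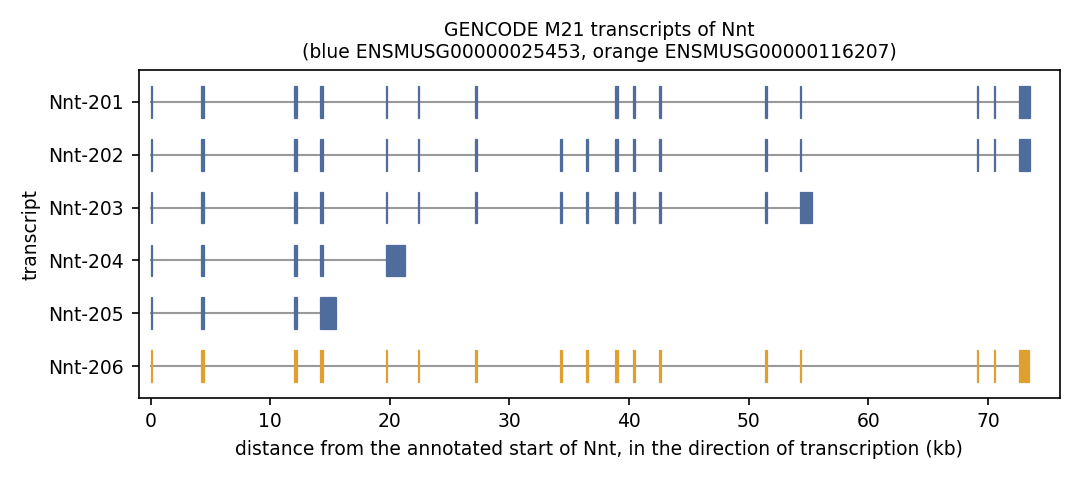
Exons (boxes) of the 6 annotated Nnt transcripts against the distance from the annotated start in kilobases, in the direction of transcription, with the first gene ID in blue and the second in orange. The 17 exons of Nnt-206 fall on those of Nnt-202, which differ from them only at the outer ends.

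The 2 IDs went in opposite directions. The first ID of Nnt stood at 1.68, 2.39 and 1.47 FPKM in knockout-labelled libraries 1 to 3 and at 6.53, 5.18 and 4.86 FPKM in wild type libraries 1 to 3. All knockout-labelled values lay below all wild type values. The second ID stood at 2.61, 0.414 and 2.29 FPKM in the knockout-labelled libraries and was listed at 0 in each wild type library. It was above 0 in every knockout-labelled library, and library 2 was the low one.

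Summed over both IDs, Nnt stood at 4.30, 2.80 and 3.76 FPKM in the knockout-labelled libraries, a mean of 3.62 ± 0.758 (SD, n = 3). The wild type libraries stood at 6.53, 5.18 and 4.86 FPKM, a mean of 5.52 ± 0.886 (SD, n = 3). The groups still did not overlap, with a gap of 0.561 FPKM between the lowest wild type library and the highest knockout-labelled one, against 2.47 FPKM for the first ID alone. The mean ratio of wild type to knockout-labelled libraries was 1.53 for the sum and 2.99 for the first ID. On the log2(FPKM + 1) scale the difference of the knockout-labelled from the wild type group was -0.50 for the sum, -1.20 for the first ID and 1.36 for the second. The mean level of the second ID in the knockout-labelled libraries equalled 48.2% of the 3.68 FPKM by which the first ID was lower. Its share of the Nnt sum was 60.8%, 14.8% and 61.0% in knockout-labelled libraries 1 to 3 and 0 in wild type.

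**Figure D2:**
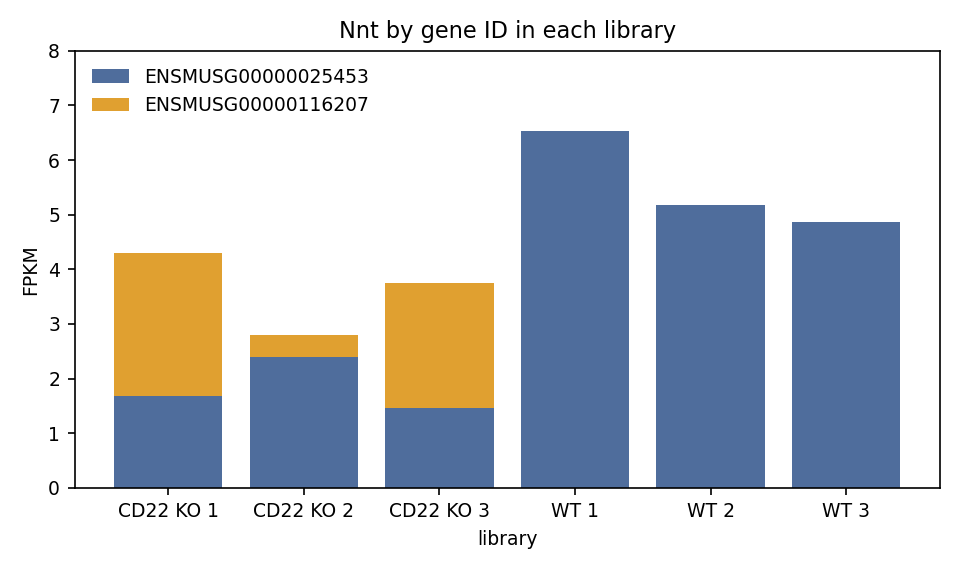
FPKM of Nnt in each of the 6 libraries as stacked bars, with the first gene ID in blue and the second in orange, so that the bar height is the sum. The sums are 2.80 to 4.30 in the knockout-labelled libraries and 4.86 to 6.53 in wild type, and orange appears in the knockout-labelled libraries alone.

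The authors' deposited table marks 74 of 31883 rows as significant. Both Nnt rows are among them, the first ID as down with a log2 fold of -1.58 and the second as up with a log2 fold of 14.1. The second fold is set against a wild type level listed at 0, so its size cannot be read. No other member is marked in the authors' deposited table, where the lowest q among them is 0.908, for Sod2. Of the 64 symbols that the table lists under several gene IDs, Nnt was the 1 with a row at 0 in a whole group and above 0 in every library of the other. Of the 31883 rows, 97 were at 0 in all wild type libraries and above 0 in every knockout-labelled library, and 60 showed the reverse. Of the 97, 1 had a mean of 1 FPKM or more in the knockout-labelled libraries, the second Nnt ID. These searches were made after the values of Nnt were seen.

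The other members did not pass the test. Expression was tested with limma across the 10777 genes at 1 FPKM or more in at least 3 libraries, on log2(FPKM + 1), 2-sided, with Benjamini-Hochberg adjustment, and called genes are those with an adjusted p under 0.05. Of the 9 members besides Nnt, 8 were tested and 0 were called, where 0.408% of all genes tested were called (0.148% higher and 0.260% lower in the knockout-labelled group). None of the 8 had an unadjusted p under 0.05, against 11.0% of all genes tested, and in all 8 the groups overlapped, while 17.1% of all genes tested showed no overlap. The second Nnt ID reached 1 FPKM in 2 libraries and Me3 in 0, so these rows were not tested. Among the 8 tested members 5 were higher and 3 lower in the knockout-labelled group, and 6 and 2 with mitochondrially encoded transcripts left out of the scale. Their median log2 difference was 0.04, where the median of all genes tested was -0.02.

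None of Idh2, Me2 and Nadk2 passed the threshold. Idh2, on the minus strand of chromosome 7 (80094846 to 80115392), makes NADPH while turning isocitrate into 2-oxoglutarate. It stood at 28.2, 27.6 and 22.0 FPKM in knockout-labelled libraries 1 to 3 and at 27.4, 23.7 and 22.3 FPKM in wild type libraries 1 to 3. The groups overlapped over most of their range, and the log2 difference was 0.08 with a 95% interval of -0.16 to 0.32 (limma, adjusted p = 0.838). Me2, a mitochondrial malic enzyme on chromosome 18 that mainly uses NAD, stood at 4.04, 3.18 and 2.65 FPKM in the knockout-labelled libraries and at 4.01, 3.40 and 3.56 in wild type. The highest and the lowest values both lay in the knockout-labelled group, and the log2 difference was -0.13 with an interval of -0.39 to 0.13 (limma, adjusted p = 0.735). Me3, the NADP-using mitochondrial malic enzyme, was listed at 0 in 5 libraries and at 0.00319 FPKM in wild type library 1.

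Nadk2, the mitochondrial NAD kinase, which makes NADP within mitochondria, lies on chromosome 15 (9071260 to 9110891, plus strand). It stood at 2.87, 2.58 and 2.19 FPKM in the knockout-labelled libraries and at 3.08, 2.70 and 2.54 FPKM in wild type. The knockout-labelled values sat lower on average within overlapping ranges. The log2 difference was -0.09 with an interval of -0.30 to 0.12 (limma, adjusted p = 0.785).

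**Figure D3:**
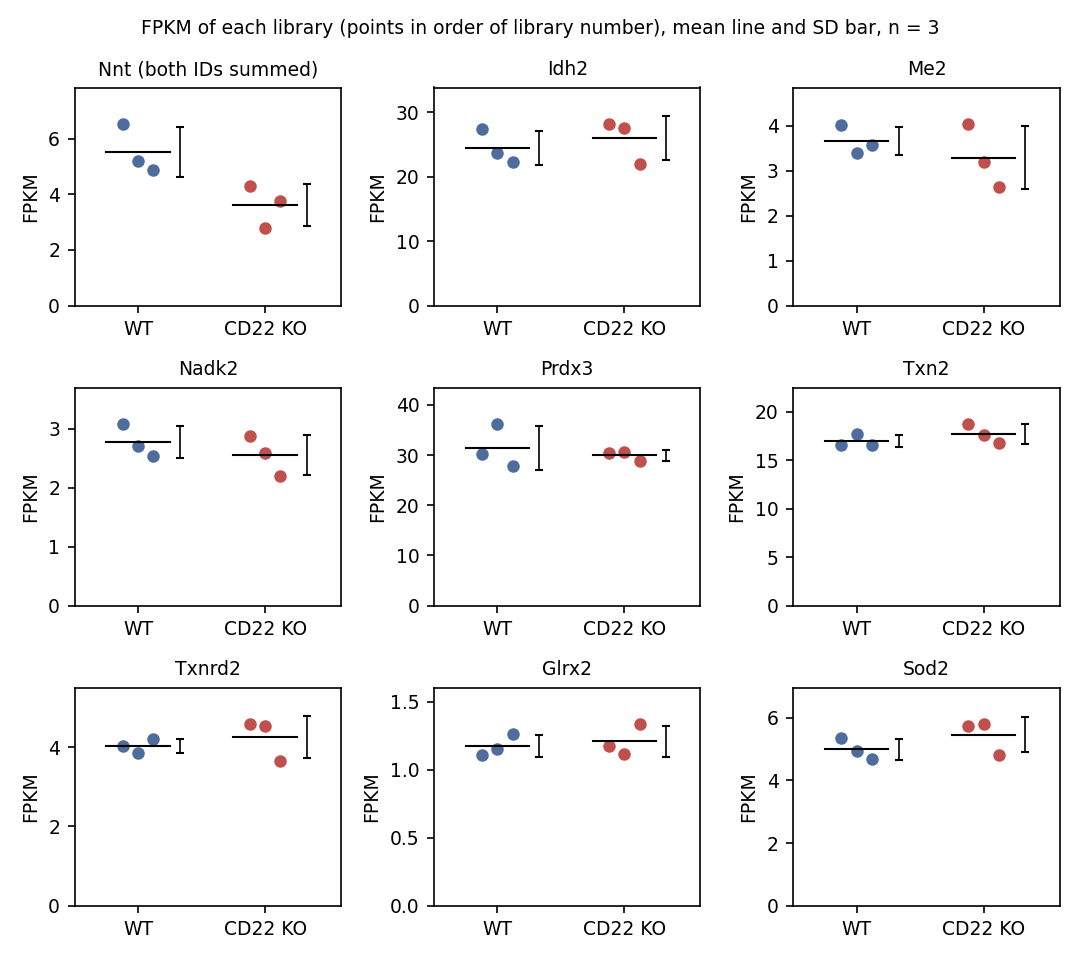
FPKM of each library for Nnt (both IDs summed) and the 8 tested members, with wild type in blue and knockout-labelled libraries in red, points in order of library number, a line at the mean and a bar of 1 SD beside it (n = 3). The Nnt groups are apart (2.80 to 4.30 against 4.86 to 6.53), and the groups of each other gene overlap.

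The thioredoxin chain showed the same overlap. Prdx3, on chromosome 19, removes hydrogen peroxide in the mitochondrial matrix and was the most abundant member by mean FPKM. It stood at 30.5, 30.6 and 28.8 FPKM in the knockout-labelled libraries and at 30.2, 36.2 and 27.8 FPKM in wild type. Wild type library 2 alone lay above the rest. The log2 difference was -0.06, and it turned to 0.05 without WT replicate 2 and to 0.01 with mitochondrially encoded transcripts left out of the scale. Its interval over all libraries was -0.27 to 0.16 (limma, adjusted p = 0.865).

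Txn2, the thioredoxin that reduces PRDX3, stood at 18.7, 17.6 and 16.7 FPKM in the knockout-labelled libraries and at 16.6, 17.7 and 16.6 FPKM in wild type. Relative to its mean of 17.0 FPKM, the wild type SD of 0.639 was the smallest among the tested members. The log2 difference was 0.06 with an interval of -0.11 to 0.22 (limma, adjusted p = 0.833). Txnrd2, the NADPH-spending reductase of TXN2 on chromosome 16, stood at 4.59, 4.53 and 3.66 FPKM in the knockout-labelled libraries and at 4.03, 3.85 and 4.20 FPKM in wild type. The wild type values lay inside the knockout-labelled range, and the log2 difference was 0.06 with an interval of -0.14 to 0.26 (limma, adjusted p = 0.851).

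Glrx2, a glutathione-dependent glutaredoxin that repairs oxidized protein thiols, was the lowest member tested. It stood at 1.17, 1.11 and 1.34 FPKM in the knockout-labelled libraries and at 1.11, 1.16 and 1.26 FPKM in wild type. Library 3 was highest in both groups, which overlapped. The log2 difference was 0.02 with an interval of -0.18 to 0.22 (limma, adjusted p = 0.960), and it turned to -0.02 without CD22_KO replicate 3. Sod2, the manganese superoxide dismutase that makes hydrogen peroxide from superoxide, stood at 5.74, 5.81 and 4.81 FPKM in the knockout-labelled libraries and at 5.35, 4.95 and 4.67 FPKM in wild type. Library 3 was lowest in both groups, which overlapped. Sod2 had the smallest p of the 8, and its log2 difference was 0.11 with an interval of -0.09 to 0.30 (limma, adjusted p = 0.714).

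**Figure D4:**
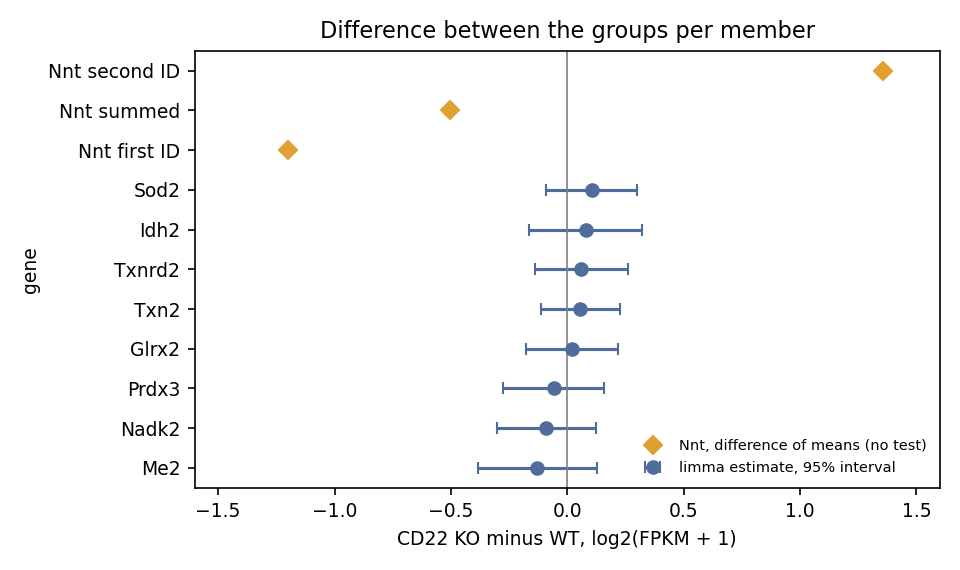
Difference of the knockout-labelled from the wild type group on the log2(FPKM + 1) scale for the 8 tested members (circles, limma estimate with 95% interval) and for Nnt (diamonds, difference of group means, no test). Each interval crosses 0, with outer bounds of -0.39 for Me2 and 0.32 for Idh2, while Nnt lies at -1.20 for the first ID, -0.50 summed and 1.36 for the second ID.

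Within the knockout-labelled group, 7 of the 8 tested members were lowest in library 3, Glrx2 being the exception. In wild type, library 3 was lowest for 5 of the 8 and library 1 highest for 4. The same counts were not made over all genes tested, so they are not read as a trait of the members.

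By level over all 6 libraries, Prdx3 (27.8 to 36.2 FPKM) and Idh2 (22.0 to 28.2) led with ranges that touched. Txn2 (16.6 to 18.7) followed, clear of Idh2. Sod2 (4.67 to 5.81), Txnrd2 (3.66 to 4.59), Me2 (2.65 to 4.04) and Nadk2 (2.19 to 3.08) made a lower tier in that order, of which Sod2 stood clear of Txnrd2 and the others overlapped their neighbours. Glrx2 (1.11 to 1.34) lay below them all except Me3. Summed Nnt ranged over 4.86 to 6.53 FPKM in wild type, beside Sod2, and over 2.80 to 4.30 in the knockout-labelled libraries, beside Me2 and Txnrd2.

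Each mitochondrial member was also set against its counterpart outside mitochondria, as a ratio of FPKM within a library that does not depend on library scaling. Txn2 was 0.182, 0.166 and 0.162 times Txn1, the cytosolic thioredoxin, in the knockout-labelled libraries and 0.147, 0.125 and 0.141 times in wild type. These ratios did not overlap, which was so for 2 of the 8 pairs. Of single genes tested, 17.1% showed no overlap, but the share for ratios of gene pairs was not computed. The count of pairs is therefore not read as unusual. Txn1 itself stood at 104 ± 1.78 FPKM against 124 ± 15.6 (SD, n = 3 each). The ratio of Sod2 to the copper-zinc dismutase gene Sod1 did not overlap either, at 0.766, 0.865 and 0.794 in the knockout-labelled libraries against 0.752, 0.706 and 0.695 in wild type. The ratios of Idh2 to Idh1, Me2 to Me1, Nadk2 to Nadk, Prdx3 to Prdx1, Txnrd2 to Txnrd1 and Glrx2 to Glrx overlapped between the groups. No ratio was tested. Nadk2 stood at 0.0404 to 0.0509 times Nadk and Prdx3 at 0.0467 to 0.0665 times Prdx1. Me2 alone exceeded its counterpart, at 2.15 to 3.77 times Me1.

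Genes of 7 related lists were read from the same fit, and limma called 0 in each. Over all genes tested 0.408% were called, so a count of 0 is not read as a trait of these lists. An unadjusted p under 0.05 was held by 11.0% of all genes tested, and 17.1% showed no overlap between the groups. List genes without overlap are not all pointed out below, Glud1, Aldh2 and Hagh being examples. Among other enzymes of mitochondrial NADPH and one-carbon metabolism, 7 of 9 were tested, 2 were higher and 5 lower (4 and 3 with mitochondrially encoded transcripts left out of the scale), the median log2 difference was -0.06, and 0 had an unadjusted p under 0.05. Glud1, the glutamate dehydrogenase, stood at 70.3 ± 2.37 FPKM against 78.5 ± 1.18 in wild type (SD, n = 3 each). Aldh2, a mitochondrial aldehyde dehydrogenase, stood at 76.6 ± 2.49 against 87.2 ± 7.81 FPKM, and Slc25a51, the carrier that brings NAD into mitochondria, at 12.8 ± 0.355 against 14.0 ± 0.557 FPKM. Their adjusted p-values were 0.468, 0.468 and 0.596 (limma).

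Peroxide, glutathione and thiol defence had 10 higher and 8 lower of 18 tested (13 and 6 of 19 with mitochondrially encoded transcripts left out of the scale), with a median of 0.03 and 3 unadjusted p-values under 0.05. Gsr, the reductase that spends NADPH to renew glutathione, stood at 8.56, 8.45 and 7.16 FPKM in the knockout-labelled libraries and at 6.79, 6.45 and 6.51 in wild type. Its groups did not overlap, which was so for 17.1% of all genes tested, and its adjusted p was 0.297 (limma, log2 difference 0.25). Slc25a10, the dicarboxylate carrier, stood at 13.8 ± 1.19 against 11.7 ± 0.793 FPKM, and Hagh, the glyoxalase II gene, at 6.98 ± 0.174 against 8.06 ± 0.445 FPKM (limma, adjusted p = 0.385 and 0.406).

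The list for NADPH outside mitochondria holds enzymes that make it, the pentose phosphate enzymes Taldo1, Tkt, Rpia, Rpe and Pgls, which do not make it themselves, and the NAD kinase Nadk. It had 6 higher and 7 lower of 13 tested (10 and 3 with mitochondrially encoded transcripts left out of the scale), with a median of -0.04 and 1 unadjusted p under 0.05. That gene was G6pdx, whose enzyme opens the pentose phosphate pathway, at 57.8, 50.6 and 59.7 FPKM in the knockout-labelled libraries and at 73.9, 70.1 and 60.4 FPKM in wild type. The groups came within 1 FPKM of each other without overlapping, as for 17.1% of all genes tested (limma, log2 difference -0.28, adjusted p = 0.343). Idh1 stood at 63.7 ± 2.12 against 69.6 ± 2.88 FPKM, and H6pd, which makes NADPH in the endoplasmic reticulum, at 13.8 ± 0.451 against 12.8 ± 1.06 FPKM (limma, adjusted p = 0.581 and 0.657).

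Genes of the phagocyte NADPH oxidase, which spends NADPH, had 2 higher and 5 lower of 7 tested, with a median of -0.16 and 1 unadjusted p under 0.05. Ncf1, the organizer subunit, stood at 101, 99.3 and 110 FPKM in the knockout-labelled libraries and at 134, 130 and 116 FPKM in wild type. Its groups did not overlap, as for 17.1% of all genes tested (limma, log2 difference -0.29, adjusted p = 0.251). Cybb, the catalytic subunit, stood at 131 ± 19.3 against 152 ± 2.92 FPKM and Ncf4 at 75.6 ± 5.87 against 85.4 ± 5.25 FPKM (limma, adjusted p = 0.475 and 0.502).

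The citrate cycle list had 8 higher and 12 lower of 20 tested, with a median of -0.03 and 0 unadjusted p-values under 0.05. Its split became 16 higher and 5 lower with mitochondrially encoded transcripts left out of the scale, when 21 genes passed the filter. Ogdh stood at 42.4 ± 3.91 against 46.3 ± 2.53 FPKM, Suclg1 at 10.5 ± 0.463 against 11.9 ± 1.91 and Pdhb at 14.8 ± 0.357 against 15.7 ± 0.582 (limma, adjusted p = 0.649, 0.658 and 0.741). Import, chaperone and protease genes of mitochondria had 10 higher and 8 lower of 18 (13 and 5 on that scale), with a median of 0.02 and 0 unadjusted p-values under 0.05. Yme1l1, an inner membrane protease, stood at 14.4 ± 1.32 against 16.4 ± 1.25 FPKM, Tomm40, the import channel, at 10.5 ± 0.649 against 9.34 ± 0.347 and Hspa9, the matrix chaperone, at 103 ± 6.25 against 113 ± 0.810 (limma, adjusted p = 0.476, 0.496 and 0.586). NRF2 and cytosolic thiol genes had 11 higher and 3 lower of 14 (13 and 1 on that scale), with a median of 0.06 and 4 unadjusted p-values under 0.05. The 3 with the smallest p were Hmox1, which degrades heme (log2 difference 0.29, adjusted p = 0.269), Txn1 (-0.25, 0.385) and the glutathione synthesis subunit Gclm (0.25, 0.385), all by limma. Over all genes tested, 42.1% were higher in the knockout-labelled group. With mitochondrially encoded transcripts left out of the scale, the medians of 3 lists turned positive, to 0.01 for mitochondrial NADPH and one-carbon enzymes, 0.03 for the list for NADPH outside mitochondria and 0.04 for the citrate cycle, while the median of all genes went from -0.02 to 0.04.

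**Figure D5:**
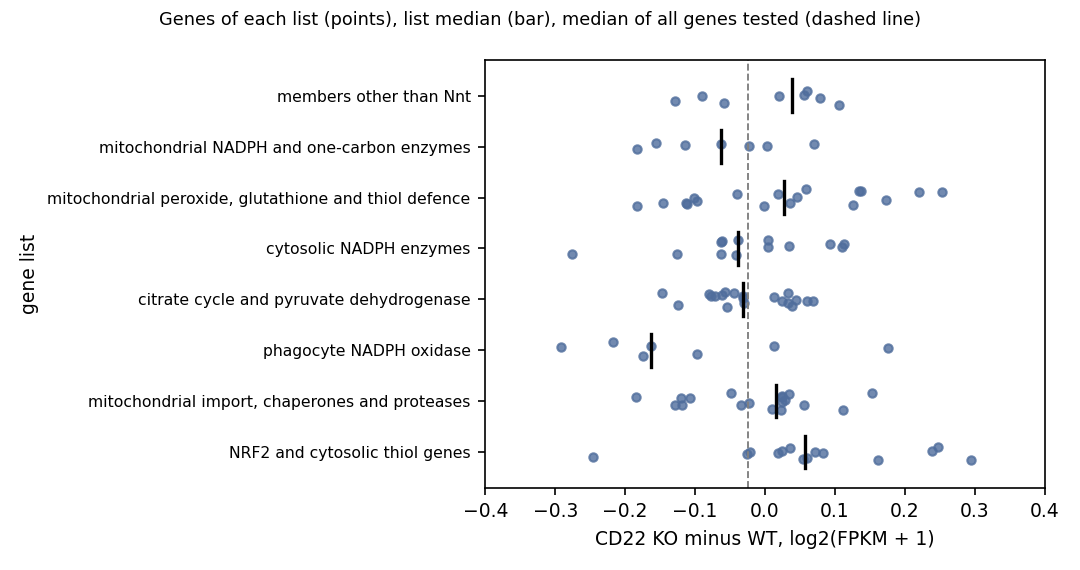
Difference of the knockout-labelled from the wild type group on the log2(FPKM + 1) scale for each tested gene (points) of the 8 tested members and of 7 related lists, with the list median as a bar and the median of all genes tested (-0.02) as a dashed line. The points lie between -0.29 (Ncf1) and 0.29 (Hmox1), and the list medians between -0.16 and 0.06.

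Likeness to Nnt was measured as the root mean square distance between gene-centred log2(FPKM + 1) values over the 6 libraries. Closest to the first ID were the pseudogenes Gm7887 (0.162) and Gm2058 (0.179), the miRNA gene Gm44341 (0.217), Tbc1d23 (0.257), which encodes a trafficking protein of the TBC domain family, and the miRNA gene Gm24187 (0.258). The profile of summed Nnt was closest to other genes, namely Klhl11 (0.0722), Phospho1 (0.0950), Soga1 (0.102), Pdpr (0.102), which encodes a regulator of the pyruvate dehydrogenase phosphatase, and Gm2981 (0.104). With a pseudocount of 0.1 in place of 1, the genes closest to the first ID were Capza1-ps1 (0.213), Gm2058 (0.247), H2-Ke6 (0.299), Kif3c (0.307) and Gm7887 (0.312), so Gm2058 and Gm7887 alone were in both lists of 5. These genes were found by the same contrast, so no test is given for them.

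Within 5 Mb of Nnt, 62 genes of the table have their annotated start, and 18 were tested. Distances are between annotated starts. The next gene, Paip1, which starts 0.0196 Mb from Nnt, stood at 11.0 ± 0.656 FPKM against 11.4 ± 0.381 (limma, adjusted p = 0.830). The tested neighbours split into 9 higher and 9 lower with a median log2 difference of -0.01. The neighbour past the threshold was Gm22108, a small nuclear RNA gene 0.608 Mb from Nnt, at 1.05, 1.29 and 1.12 FPKM in the knockout-labelled libraries and at 0.509, 0.252 and 0.324 FPKM in wild type. It entered the test through the knockout-labelled libraries alone, so its call is not read as a result. Small nuclear RNA genes have near-identical copies that can share reads, so its values are uncertain.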

How the data were processed

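Per the labels' protocols, the 6 libraries were stranded, made from poly(A) RNA and read from both ends. The FPKM values per gene were deposited by the authors, with the authors' fold (a ratio of mean FPKM), its log2 and a p-value and q-value per gene, also deposited. Among the tools in the submitters' processing notes are HISAT2 and StringTie, beside edgeR, DESeq2, FastQC and cutadapt, whose roles are not stated there. The authors' genome build and method of comparison were not given in the sources used here. GENCODE M21 (GRCm38) held 31792 of the 31883 gene IDs (99.7%), and positions and transcripts were taken from it by gene ID.

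FPKM gives no read depth, and no interval for counting error is given. Judged by the steps between low values, depth relative to wild type library 1 was 1.10 to 1.11 in the knockout-labelled group, 1.02 in wild type library 2 and 0.97 in wild type library 3. These estimates are rough. Each is the most frequent ratio to wild type library 1, held by 80 to 106 of the 2361 to 2623 low values compared. A value of 0 may be a failed estimate and is written as listed at 0. Abundant transcripts shift all other FPKM values of their library.

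Genes with at least 1 FPKM in at least 3 libraries were fitted on log2(FPKM + 1) with limma 3.58.1 in R 4.3.3 (mean-variance trend, robust moderation, no covariates). The fit was also run on simulated data. These were drawn with the variances of the fit itself, so they cannot show whether its assumptions hold in the real libraries. Differences on the log2(FPKM + 1) scale understate the change of low genes. Each library carries its own batch code, so batch could not be fitted. The members, lists, tests and alternatives were chosen with earlier results of these data known. The text names every member, any called gene of each list and its 3 genes of smallest p, the 5 genes most like Nnt and called genes within 5 Mb of it, beside Paip1, chosen as the nearest tested gene. Protein features of the members were planned and are not analysed here.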

Additional observations from a re-analysis of the deposited data

How the results depend on the processing

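Under 16 alternatives (a pseudocount of 0.1, no filter, a filter of 5 FPKM, quantile normalization, median centring, moderation that is not robust, a replicate block, each library left out, wild type libraries 1 and 2 left out, the Nnt IDs summed, and a scale without mitochondrially encoded transcripts, added after the data were seen) limma called 0 members besides Nnt, with a lowest adjusted p of 0.443. None of the 7 lists gained a call. With the filter of 5 FPKM, 4 members besides Nnt were tested, and with no filter 9. The difference turned sign for Prdx3 and Glrx2 under some of the alternatives and for no other tested member. Summed Nnt stayed lower, at -0.61 to -0.36 on the log2 scale. The first ID went to -1.55 and the second to 3.90 with a pseudocount of 0.1. The count of all called genes, 44, was 3 with no filter, 11 with wild type library 3 alone (assumed to vary like the knockout-labelled group) and 28 to 87 with 1 library left out, 28 without CD22_KO replicate 2 and 87 without CD22_KO replicate 3. With the replicate block it was 63. Libraries with the same number did not deviate together (correlations of 0.056, -0.034 and 0.070 for numbers 1 to 3), so the numbers were not taken to pair them. Absolute depth is unknown, which limits what can be read from Me3 and Glrx2.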
